A study of Homo sapiens with 14 samples.

Results

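CD24 was measured in Kasumi-1 cells by every probe set whose only gene symbol in the platform annotation was CD24, each taken separately. There were 6 of these among the 22283 probe sets of the array: 216379_x_at, 209771_x_at, 208651_x_at, 208650_s_at, 209772_s_at and 266_s_at. All 6 were among the 13329 probe sets kept for testing, the upper 60% of the non-control probe sets by mean signal. CD24 was taken up for its large difference between AML1-ETO and luciferase siRNA in these arrays, so its values in that comparison are given as a description, without a test.

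The cell line Kasumi-1 was grown from a human acute myeloid leukaemia, so that every group below has the AML1-ETO fusion of RUNX1 and RUNX1T1. RNA was taken at 96 h in each of 6 groups. Cells with siRNA to AML1-ETO make up a lipid group of 3 arrays, transfected with the reagent siLentFect, and a nucleofection group of 3 arrays, transfected electrically by the Amaxa method. Cells with siRNA to luciferase, an insect enzyme used as a control target, make up a lipid group of 3 arrays and a nucleofection group of 2, its replicates 1 and 2. One array came from Amaxa nucleofection with no siRNA, and 2 arrays, replicates 1 and 3, came from cells that were not transfected. The siRNA was at 240 nM with lipid and at 1.5 µM with nucleofection, so method and concentration cannot be told apart. All arrays come from 1 cell line, and the labels do not say that replicates were separate cultures. The p-values below therefore rest on the spread from array to array, part or all of which may be technical.

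CD24 is a small, heavily glycosylated surface protein held in the membrane by a glycosylphosphatidylinositol (GPI) anchor. It is known from B cell precursors, maturing granulocytes and many epithelia, and its sugar chains are bound by P-selectin and by the inhibitory receptor Siglec-10. Lacking a cytoplasmic part, it is linked to signalling through Src family kinases in lipid rafts.

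In RefSeq's GRCh38.p14 annotation CD24 lies on the minus strand of chromosome 6, from position 106969831 to 106976855. The same annotation lists 5 CD24 pseudogenes elsewhere in the genome. Probe sets ending in _x_at or _s_at can take signal from related transcripts, so the signals of all 6 may include transcripts of such copies. RefSeq gave 3 promoter windows for CD24, each from 250 bases before to 50 bases after an annotated transcript start. These were searched on both strands for the letters TGTGGT, read by RUNX proteins and hence by the DNA-binding part of the fusion, TTGCNNAA for C/EBP factors, GGAAGT for ETS factors and CANNTG for E proteins. Over all 35116 promoter windows of the table, 13.1% held the RUNX letters, 10.5% the C/EBP letters, 22.8% the ETS letters and 68.7% the E protein letters. In CD24, 0 of the 3 windows held the RUNX or C/EBP letters, and 1 held an ETS and an E protein match, which did not overlap. That window, at chr6:106973990-106974289 on the minus strand, is shown 5′ to 3′ because it holds the matches, in capitals, at positions 2 and 11 from its 5′ end. The arrays do not tell which start was used. The windows at chr6:106975578-106975877 and chr6:106975416-106975715 overlap each other. No window reached the annotated 5′ end of the gene, at 106976855, so that end was not searched.
CD24 promoter window: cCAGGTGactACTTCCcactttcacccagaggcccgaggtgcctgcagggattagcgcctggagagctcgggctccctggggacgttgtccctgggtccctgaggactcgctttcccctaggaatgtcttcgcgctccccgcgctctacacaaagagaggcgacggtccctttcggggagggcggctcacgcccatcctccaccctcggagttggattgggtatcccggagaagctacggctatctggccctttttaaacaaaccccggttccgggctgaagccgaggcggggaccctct

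Values are MAS5 signals, linear intensities that the authors scaled to the same mean of 138.5 on every array. Below 20, the floor set here, values were treated as having no order, and 38.3% to 44.2% of the probe sets of an array lay there. Of the markers of myeloid progenitors, KIT, MPO, RUNX1T1, CD34 and PTPRC were above the floor on all 14 arrays and ANPEP was below it on all 14. The brightest RUNX1T1 probe set, which reads the fusion partner targeted by the siRNA and cannot separate it from RUNX1T1's own transcript, had signals of 318, 328 and 251 with AML1-ETO siRNA by nucleofection, against 644 and 763 with luciferase siRNA. By lipid they were 400, 426 and 502, against 540, 560 and 567. The arrays did not overlap within either method.

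With AML1-ETO siRNA, CD24 was highest and reached nearly the same signal by both methods. By probe set 216379_x_at, the one with the highest mean signal, it was 520, 388 and 547 on replicates 1 to 3 by lipid, against 211, 276 and 276 with luciferase siRNA. By nucleofection it was 447, 439 and 471 with AML1-ETO siRNA, against 53.6 and 55.9 with luciferase siRNA. The array of nucleofection without siRNA had 90.6, and the untransfected arrays had 340 and 204. The arrays with AML1-ETO siRNA were above all others, while those of nucleofection without it were below all others.

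Probe set 209771_x_at gave the same picture. It had 535, 364 and 500 with AML1-ETO siRNA by lipid, against 251, 240 and 269 with luciferase siRNA. By nucleofection it had 430, 494 and 504, against 74.2 and 52.5. Nucleofection without siRNA had 54.6, and untransfected cells had 321 and 224. All 6 AML1-ETO arrays again lay above all other arrays.

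**Figure D1:**
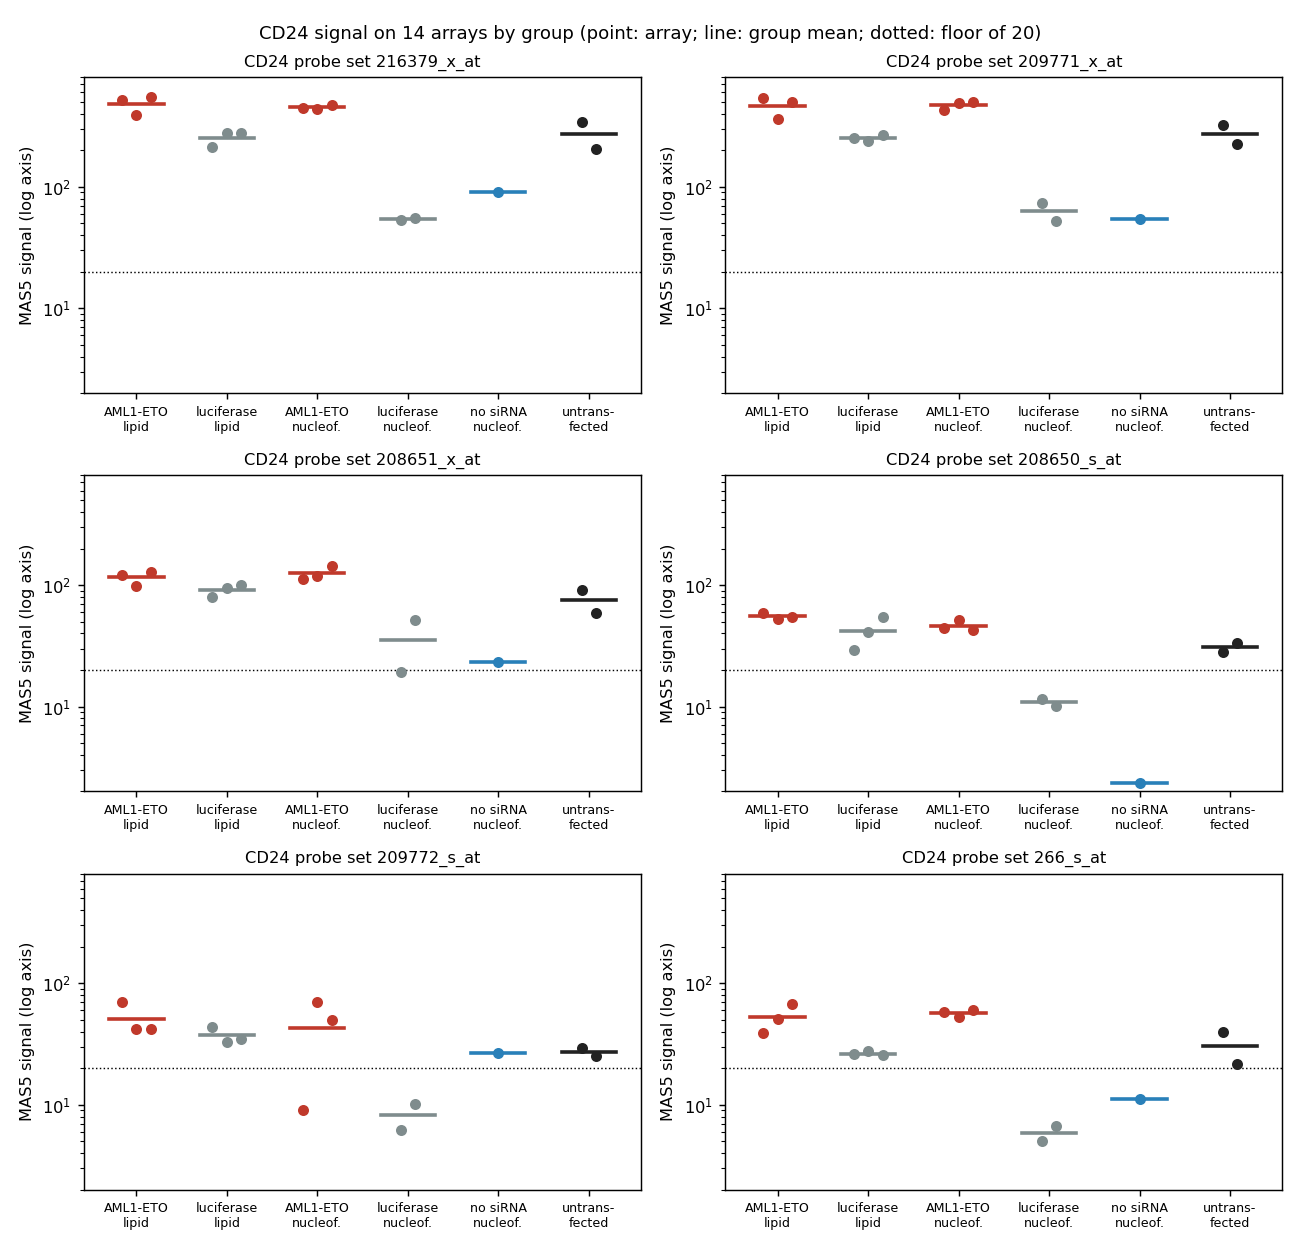
MAS5 signal of the 6 CD24 probe sets (log axis) on each of 14 arrays by group, with a point per array, a line at the group mean and a dotted line at the floor of 20. In 216379_x_at and 209771_x_at the AML1-ETO arrays lie between 364 and 547, and the arrays of nucleofection without AML1-ETO siRNA between 52.5 and 90.6.

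The third probe set ending in _x_at, 208651_x_at, had 121, 98.1 and 127 with AML1-ETO siRNA by lipid, against 79.7, 95.2 and 101 with luciferase siRNA, and these overlapped. By nucleofection it had 112, 119 and 143 with AML1-ETO siRNA, against 19.4 and 51.5 with luciferase siRNA, which did not. Nucleofection without siRNA gave 23.2 and untransfected cells 91.1 and 59.2. The luciferase arrays by nucleofection differed most from each other here, and 1 of them was below the floor.

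The probe sets ending in _s_at were dimmer and in part at the floor. Probe set 208650_s_at had 58.7, 52.8 and 54.7 with AML1-ETO siRNA by lipid, against 29.2, 40.8 and 54.8 with luciferase siRNA. By nucleofection it had 43.9, 51.3 and 42.6, against 11.6 and 10.1, both below the floor. The array without siRNA was at 2.35, also below the floor, and untransfected cells were at 28.1 and 33.2. The lipid groups overlapped and the nucleofection groups did not.

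Probe set 266_s_at had 39.1, 51.1 and 67.3 with AML1-ETO siRNA by lipid, against 26.1, 27.5 and 25.6 with luciferase siRNA. By nucleofection it had 57.6, 52.3 and 60.4, against 5.04 and 6.72, both below the floor. The array without siRNA was at 11.2 and untransfected cells were at 39.8 and 21.5. Here the AML1-ETO arrays lay above the luciferase arrays by either method, and AML1-ETO lipid replicate 1 lay below untransfected replicate 1.

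Probe set 209772_s_at was the exception within a group. It had 9.09 on AML1-ETO nucleofection replicate 1, below the floor, beside 69.6 and 49.8 on replicates 2 and 3, against 6.21 and 10.2 with luciferase siRNA. On that same AML1-ETO array the other 5 probe sets lay between −0.15 and 0.02 of their group means on the log2 scale. By lipid it had 69.6, 41.8 and 42.0 with AML1-ETO siRNA, against 43.9, 33.2 and 35.1 with luciferase siRNA. The array without siRNA was at 26.6, close to the 29.5 and 25.1 of untransfected cells, in contrast to the other probe sets.

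The order of the group means was alike in outline. The AML1-ETO groups took the 2 highest places in all 6 probe sets, AML1-ETO by lipid being first in 3 and AML1-ETO by nucleofection in 3. They overlapped each other in 5 of the 6, and in 208650_s_at all lipid arrays were above the nucleofection arrays. Luciferase by lipid and untransfected cells took the middle places, overlapping in all probe sets but 209772_s_at. Nucleofection with luciferase siRNA and without siRNA took the lowest places. The AML1-ETO groups were set off from the next group without overlap in 216379_x_at and 209771_x_at, and overlapped it in the other 4. The step down to the lowest groups was free of overlap in all but 209772_s_at. Every array of these groups was below the 11 other arrays in 5 of the 6 CD24 probe sets, an arrangement that 3.86% of the tested probe sets had.

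As a difference of means on the log2 scale of floored signal, AML1-ETO against luciferase siRNA by nucleofection was 3.05 (SE 0.23) in 216379_x_at, 2.93 (SE 0.22) in 209771_x_at and 1.95 (SE 0.32) in 208651_x_at. That of 208651_x_at rests on the luciferase arrays, being 1.27 without replicate 1 and 2.63 without replicate 2, and it was 0.95 with a floor of 64. For the other 3 probe sets the luciferase group lay wholly below the floor. CD24 was at least 2.83-fold higher in 266_s_at and at least 2.29-fold higher in 208650_s_at. In 209772_s_at the groups overlapped and 1 of the AML1-ETO arrays was itself raised to the floor, so that its difference of 1.04 (SE 0.40) is no bound; it ranged from 0.66 to 1.56 with single arrays left out and was 0.040 with a floor of 64. The groups did not overlap in 5 of the 6, where 11.8% of the tested probe sets were higher without overlap.

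By lipid all 6 differences were positive and smaller. They were 0.93 (SE 0.20) in 216379_x_at, 0.86 (SE 0.20) in 209771_x_at and 0.96 (SE 0.23) in 266_s_at, the 3 probe sets without overlap, where 3.3% of the tested probe sets were higher without overlap. They were 0.46 (SE 0.20) in 208650_s_at, 0.42 (SE 0.36) in 209772_s_at and 0.33 (SE 0.29) in 208651_x_at. With a floor of 64, above most of its signals, 266_s_at was at 0.024. The median over all tested probe sets was −0.10 by nucleofection and −0.04 by lipid. The difference by nucleofection exceeded that by lipid by 2.12 (SE 0.31) in 216379_x_at and by 2.06 (SE 0.30) in 209771_x_at. The excess was 1.62 (SE 0.43) in 208651_x_at and 0.62 (SE 0.54) in 209772_s_at. In 208650_s_at and 266_s_at it was a bound, at least 0.74 (SE 0.30) and at least 0.55 (SE 0.34).

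Set against untransfected cells, the AML1-ETO groups stood at similar heights by both methods, and the luciferase groups did not. In 216379_x_at AML1-ETO by nucleofection was 0.78 (SE 0.23) above untransfected cells and luciferase by nucleofection 2.27 (SE 0.25) below them, which add up to the 3.05 between them. By lipid the AML1-ETO group was 0.86 (SE 0.23) above and the luciferase group 0.06 (SE 0.23) below. In 209771_x_at the AML1-ETO groups were 0.82 (SE 0.22) above by nucleofection and 0.78 (SE 0.22) above by lipid, while luciferase siRNA was 2.10 (SE 0.24) below by nucleofection and 0.08 (SE 0.22) below by lipid. Over the 6 probe sets, 209772_s_at with its array at the floor included, the AML1-ETO groups lay between 0.58 and 0.95 above untransfected cells by nucleofection and between 0.65 and 0.87 above by lipid. In each case 5 of 6 did not overlap, where 11.8% and 11.4% of the tested probe sets were higher without overlap. AML1-ETO by nucleofection minus AML1-ETO by lipid was between −0.27 and 0.15. These comparisons share the untransfected arrays and the arrays on which CD24 was chosen, and they were not tested.

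**Figure D2:**
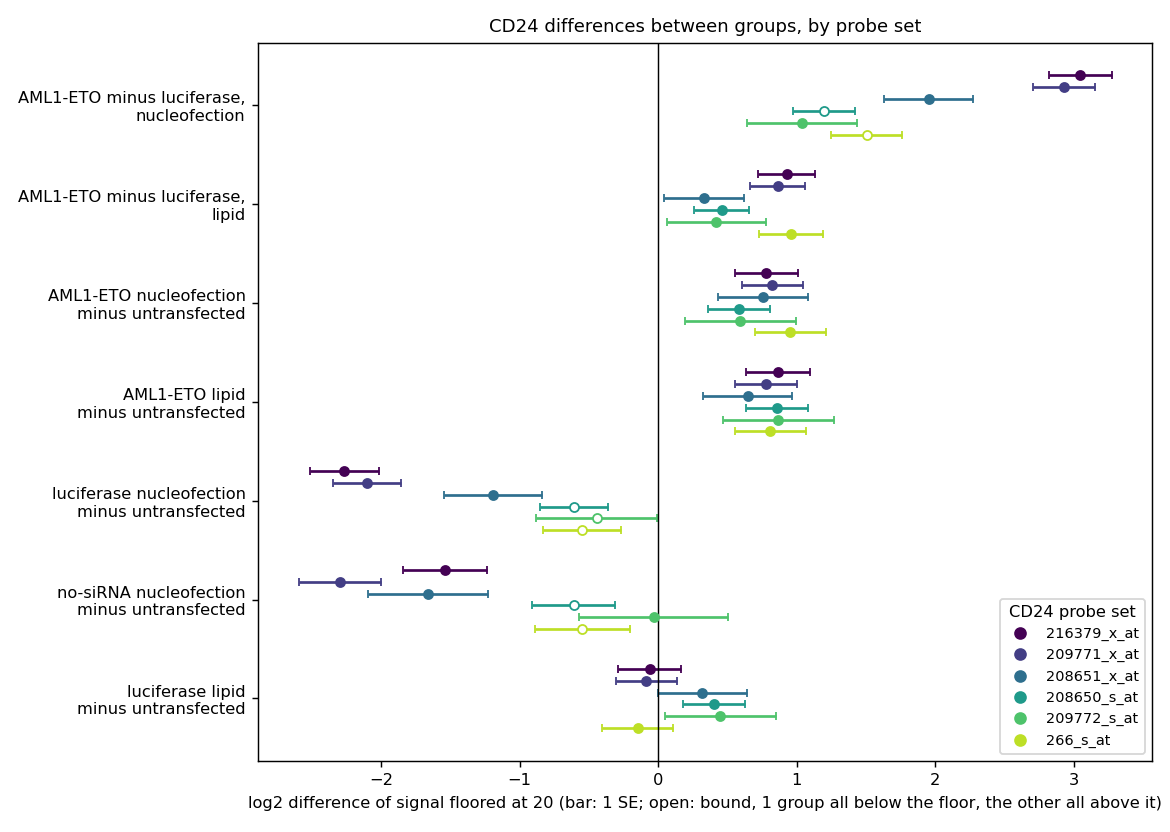
Log2 differences of floored CD24 signal for 7 comparisons, a point per probe set with a bar of 1 SE and open points for bounds. The differences of AML1-ETO groups from untransfected cells lie between 0.58 and 0.95 by both methods, while luciferase by nucleofection reaches −2.27.

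Whether nucleofection alone went with a change of CD24 was read from the array without siRNA. This array is outside the comparison of AML1-ETO with luciferase siRNA, but its CD24 values were known when CD24 was taken up, so the test is not independent evidence. CD24 was lower than in untransfected cells in the 2 probe sets with the highest signals. In 209771_x_at it had 54.6, against 321 and 224, a log2 difference of −2.30 (SE 0.30, limma adjusted p = 0.00618). In 216379_x_at it had 90.6, against 340 and 204, a log2 difference of −1.54 (SE 0.31, limma adjusted p = 0.0291). The test assumes that the lone array varies like the other groups. Among the tested probe sets 1.41% were called lower in this comparison.

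The other 4 probe sets did not pass there as processed here. The log2 difference was −1.66 (SE 0.43, limma adjusted p = 0.0752) in 208651_x_at and −0.03 (SE 0.54, limma adjusted p = 0.994) in 209772_s_at, and those of 208650_s_at and 266_s_at were bounds of −0.61 and −0.55. Other settings called 208650_s_at (−2.61, limma adjusted p = 0.00505, with a floor of 5, and −1.34, limma adjusted p = 0.0167, with log2 of signal plus 16) and 208651_x_at (−1.66, limma adjusted p = 0.0313, with an intensity trend, and limma adjusted p = 0.0175 with either luciferase nucleofection array left out).

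The calls rest on the untransfected arrays: without replicate 1, the higher, 216379_x_at was at −1.17 (limma adjusted p = 0.157) and 209771_x_at at −2.04 (limma adjusted p = 0.053). On the 2 groups alone both calls were lost, with limma adjusted p = 0.314 in 216379_x_at and 0.275 in 209771_x_at. With the scale factor as a covariate (limma adjusted p = 0.0527) and with the replicate number as a block (limma adjusted p = 0.0765) the call of 216379_x_at was lost, and that of 209771_x_at was kept.

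The luciferase arrays took part in the choice of CD24, so their differences from untransfected cells are a description, without a test. With luciferase siRNA by nucleofection the log2 difference was −2.27 (SE 0.25) in 216379_x_at and −2.10 (SE 0.24) in 209771_x_at, or 4.81-fold and 4.29-fold lower signals. Probe set 208651_x_at was at −1.19 (SE 0.35), but at −0.51 without luciferase replicate 1 and at −1.88 without replicate 2. The other 3 gave bounds of −0.61, −0.55 and −0.44, the luciferase arrays being below the floor. All 6 probe sets were below untransfected cells without overlap, as were 29.3% of the tested probe sets.

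With luciferase siRNA by lipid CD24 lay close to untransfected cells. The log2 difference of 216379_x_at was −0.06 with a 95% interval from −0.55 to 0.43, and that of 209771_x_at −0.08 with an interval from −0.56 to 0.39. In 3 probe sets the difference was above 0, up to 0.45 in 209772_s_at, which alone did not overlap, where 14.1% of the tested probe sets were higher without overlap. Without untransfected replicate 1 the difference of 216379_x_at was 0.31, and without luciferase lipid replicate 1 it was 0.07.

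Some technical values moved with these groups. The log2 ratio of the 3′ to the 5′ GAPDH control probe set, a sign of RNA or target integrity, was 0.03 to 0.25 with luciferase siRNA by nucleofection and −0.04 without siRNA, the groups with the lowest CD24. It was −0.18 to −0.11 with AML1-ETO siRNA by nucleofection, −0.38 to −0.17 with AML1-ETO siRNA by lipid, −0.30 to −0.26 with luciferase siRNA by lipid and −0.21 to −0.19 in untransfected cells. The same ratio for ACTB did not set these groups apart. It was 0.38 to 0.84 with luciferase siRNA by nucleofection and 0.36 without siRNA, beside 0.29 to 0.46 with AML1-ETO siRNA by nucleofection, 0.31 to 0.59 with AML1-ETO siRNA by lipid, 0.30 to 0.38 with luciferase siRNA by lipid and 0.50 to 0.66 in untransfected cells. The part of either ratio in the CD24 differences was not tested.

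The scale factors of AML1-ETO and luciferase arrays by nucleofection, 0.964 to 1.56 and 1.17 to 1.53, overlapped. Those of luciferase siRNA by nucleofection and of the array without siRNA, 1.12, were above the 0.571 to 1 of untransfected cells, and above the 0.627 to 1.06 of luciferase siRNA by lipid. With the scale factor as a covariate, 216379_x_at without siRNA against untransfected cells was at −1.32, where −1.54 was found without it. The labels and the table give no scan date or other batch.

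Markers of other cell types that carry CD24 were also read. The summed signal of 7 B lineage genes was 146 to 177 with AML1-ETO siRNA by nucleofection, against 166 to 180 with luciferase siRNA. By lipid it was 114 to 175, against 104 to 182. It was 177 on the array without siRNA and 98.7 to 99.0 in untransfected cells. Of the 7, CD79B and VPREB1 were below the floor on all arrays, and CD22, with 34.7 to 71.9, was above it on all 14. CD79A reached the floor on 11 arrays, MS4A1 and PAX5 on 7 each and BLNK on 4.

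The summed signal of 7 epithelial genes was 156 to 205 with AML1-ETO siRNA by nucleofection, against 136 to 138 with luciferase siRNA. By lipid it was 247 to 325, against 272 to 283. It was 143 without siRNA and 299 to 324 in untransfected cells. CDH1, KRT19, KRT7 and CLDN4 were below the floor on all arrays, and EPCAM, with 71.3 to 267, was above it on all. No other gene of the list exceeded 41.2, so EPCAM was the largest part of the sum on every array. The part of these markers in the CD24 differences was not tested. In bulk RNA, fewer cells of a type and less RNA per cell cannot be told apart.

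On the AML1-ETO arrays the 2 methods did not overlap in RUNX1T1, which was lower by nucleofection, and overlapped in CD24 by 216379_x_at. In 208650_s_at the lipid arrays lay above the nucleofection arrays. RUNX1T1 averaged 299 ± 41.7 (SD, n = 3) with AML1-ETO siRNA by nucleofection and 443 ± 52.9 (SD, n = 3) by lipid, while CD24 by 216379_x_at averaged 452 ± 16.4 (SD, n = 3) and 485 ± 85.1 (SD, n = 3). Among arrays without AML1-ETO siRNA, RUNX1T1 averaged 704 ± 83.6 (SD, n = 2) with luciferase siRNA by nucleofection, where CD24 averaged 54.8 ± 1.60 (SD, n = 2). It averaged 556 ± 14.4 (SD, n = 3) with luciferase siRNA by lipid, where CD24 averaged 254 ± 37.2 (SD, n = 3). The array without siRNA, with 582 for RUNX1T1 and 90.6 for CD24, had RUNX1T1 between the 514 and 619 of the untransfected arrays and CD24 below both.

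**Figure D3:**
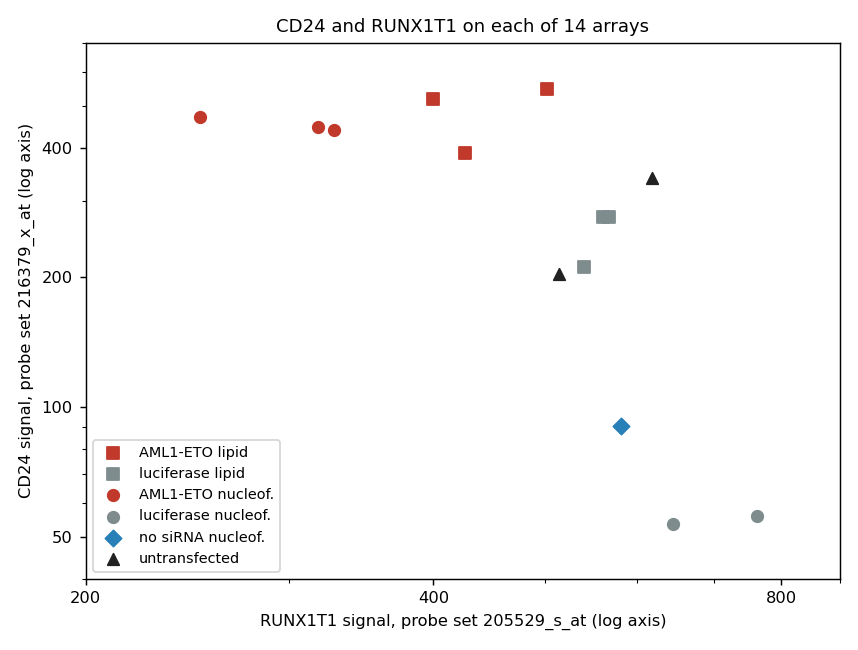
CD24 signal (probe set 216379_x_at) against RUNX1T1 signal (probe set 205529_s_at) on each of 14 arrays, both on log axes, with colour and shape for the group. The 6 AML1-ETO arrays have CD24 of 388 or more at RUNX1T1 of 502 or less, and the other arrays, all with RUNX1T1 of 514 or more, span CD24 from 53.6 to 340.

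Agreement between the CD24 probe sets was described by Pearson's r of log2 floored signal over the 14 arrays, which share groups and scaling. With 216379_x_at, r was 0.97 for 209771_x_at, the highest of 13328 other tested probe sets. It was 0.91 for 208651_x_at (rank 18), 0.89 for 208650_s_at (rank 39), 0.85 for 266_s_at (rank 85) and 0.67 for 209772_s_at (rank 500). The median over the 13328 was 0.03. Within groups the agreement was partial. All of 216379_x_at, 209771_x_at and 208651_x_at had AML1-ETO lipid replicate 2 as the lowest of its group and untransfected replicate 1 above replicate 3. They disagreed on luciferase nucleofection, where 208651_x_at was higher on replicate 2 and 209771_x_at on replicate 1. With luciferase siRNA by lipid the lowest was replicate 1 in 216379_x_at and 208651_x_at, and replicate 2 in 209771_x_at. With AML1-ETO siRNA by nucleofection the lowest was replicate 2 in 216379_x_at, and replicate 1 in 209771_x_at and 208651_x_at. In 208650_s_at untransfected replicate 3 was above replicate 1.

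The 6 other genes most like CD24 by this measure were LTA4H, which makes leukotriene B4 (r = 0.94), ZFP36L2, an RNA-binding protein of mRNA decay (r = 0.94), BTG1, an inhibitor of proliferation (r = 0.94), S100A4, a calcium-binding protein (r = 0.94), LST1, a transmembrane protein of leukocytes (r = 0.93), and NINJ2, an adhesion molecule (r = 0.93). In all, 24 other probe sets had an r of at least 0.9. These genes were picked for likeness on the same arrays, and their values are a description.

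The sizes of their differences varied. LST1 came nearest in size, with log2 differences of 2.94 (SE 0.29) for AML1-ETO against luciferase siRNA by nucleofection and 1.31 (SE 0.26) by lipid, and −1.90 (SE 0.32) for luciferase by nucleofection against untransfected cells. ZFP36L2 was at 1.20 and 0.36 for the knockdown by nucleofection and lipid, and at −0.46 for luciferase by nucleofection against untransfected cells. S100A4 was at 1.43 and 0.22, and at −1.46 against untransfected cells. Its AML1-ETO group by nucleofection was at −0.02 against untransfected cells, where CD24 was at 0.78. NINJ2 was at 1.42 and 0.03, BTG1 at 0.92 and 0.48 and LTA4H at 0.63 and 0.18 for the knockdown by nucleofection and lipid.

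**Figure D4:**
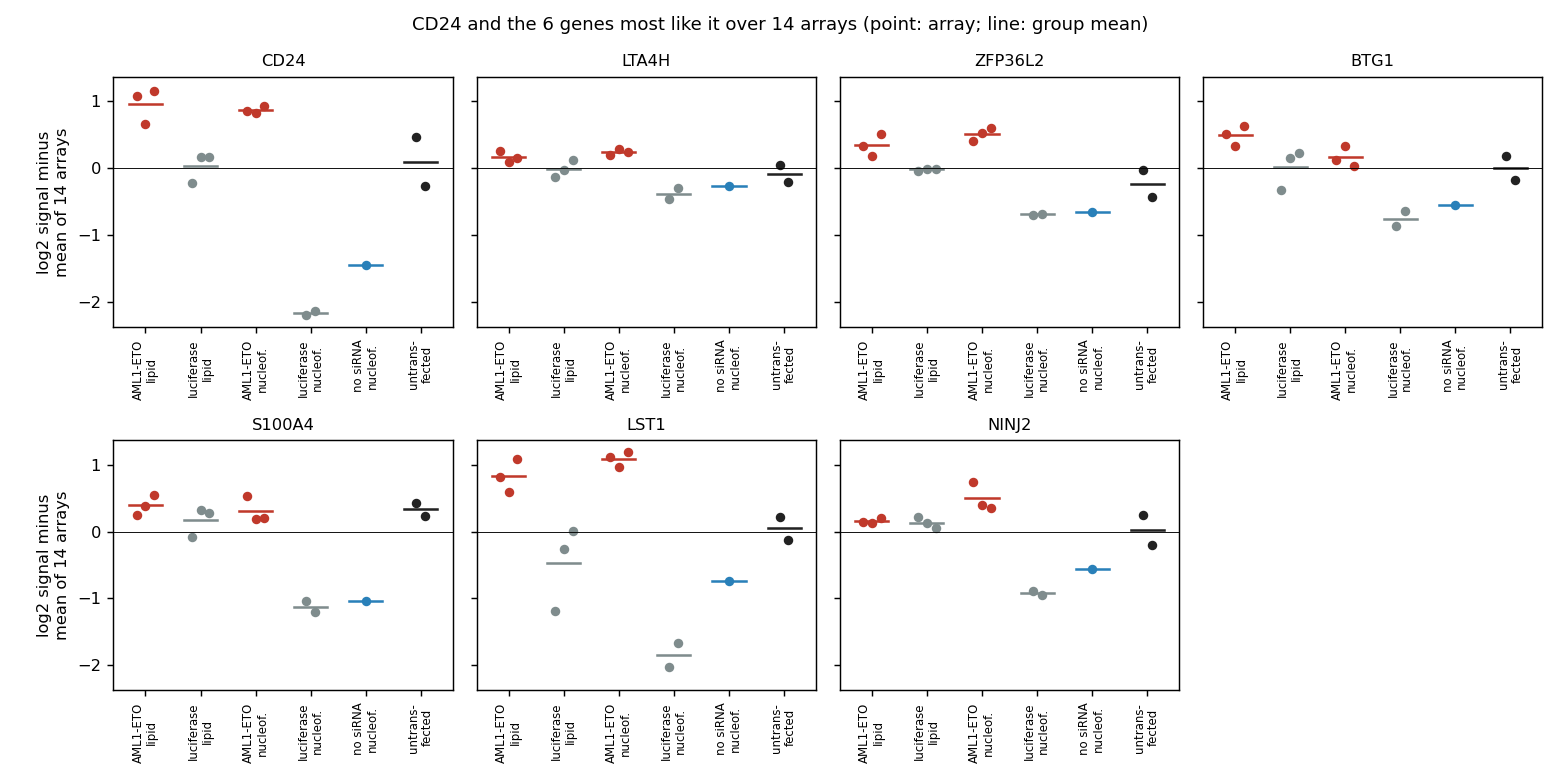
Log2 floored signal minus the mean of the 14 arrays for CD24 (216379_x_at) and the 6 genes most like it, a point per array and a line at each group mean. Luciferase by nucleofection is the lowest group in all 7 panels, and the difference between AML1-ETO and luciferase by nucleofection runs from 0.63 in LTA4H to 3.05 in CD24.

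Genes related to CD24 by binding, signalling, type of anchor or glycosylation were counted in 4 lists for AML1-ETO against luciferase siRNA. A place in a list does not mean that a gene acts on CD24. Each gene was read from its probe set of highest mean, with adjusted p-values from limma over all tested probe sets. By nucleofection 1.23% of all 8130 tested genes were called higher and 0.861% lower. Of 12 tested genes listed as ligands, signalling partners or related surface proteins, out of 15 on the array, 1 was higher and 0 lower. It was SELPLG, at 2.30 (SE 0.36, limma adjusted p = 0.00581). SELPLG is, like CD24, a ligand of P-selectin on leukocytes, rather than a partner of CD24. The median of the list was −0.31, against −0.11 for all genes. An unadjusted p under 0.05 was seen for 7 of the 12, 2 higher and 5 lower, and for 17.8% of all tested genes. All 7 are named here after their values were seen. The 2 higher were SELPLG and the phosphatase PTPN6 (0.63, limma adjusted p = 0.0672). The 5 lower included the Src family kinases FGR (−1.27) and LYN (−0.49) and the phosphatase PTPN11 (−0.66). The others were the CD24 ligand HMGB1 (−0.45) and ANXA2, a phospholipid-binding protein (−0.37). These 5 had limma adjusted p = 0.0938 or more. By lipid SELPLG was at 1.04 and PTPN6 at 0.34. Of the 5 lower genes, FGR was at 0.43 and HMGB1 at 0.18 by lipid, while LYN was at −0.06, PTPN11 at −0.08 and ANXA2 at −0.22.

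Of 15 tested genes of other GPI-anchored surface proteins, out of 23 on the array, 3 were higher and 0 lower by nucleofection, with a median of 0.25 and an unadjusted p under 0.05 for 5. They were CEACAM6, an adhesion molecule of granulocytes, at 1.74 (limma adjusted p = 0.00515), CD59, an inhibitor of complement, at 1.03 (limma adjusted p = 0.0184), and BST2, an interferon-induced antiviral protein, at 1.01 (limma adjusted p = 0.0369). By lipid CEACAM6 was at 1.05, CD59 at −0.04 and BST2 at 0.56. Of 21 tested genes that build and attach the GPI anchor, out of 23 on the array, 0 passed limma's test and 3 had an unadjusted p under 0.05, a share below that of all genes, with a median of 0.12. Of 26 tested genes of O-glycan and sialyl Lewis X synthesis, out of 32 on the array, 1 was higher and 0 lower, with a median of −0.07 and an unadjusted p under 0.05 for 4. It was FUT4, a fucosyltransferase of myeloid cells, at 0.95 (limma adjusted p = 0.0141), and at 0.20 by lipid.

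By lipid 0 genes of the 4 lists passed limma's test, where 0.0861% of all tested genes were called higher and 0.0123% lower. An unadjusted p under 0.05 was seen for 2 of the 12 genes of the first list and 2 of the 15 GPI-anchored proteins. It was also seen for 1 of the 21 anchor genes and 1 of the 26 glycan genes, and for 4.45% of all tested genes. The medians of the lists lay between −0.09 and 0.03, against −0.03 for all genes.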

How the data were processed

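The authors deposited linear intensities, 1 for each probe set and array. They come from MAS5, per the submitters' processing notes; its version and settings are not given in the sources used here. The labels give a scale factor for each array, between 0.488 and 1.56. A change shared by most genes cannot be seen after such scaling. Of 22283 probe sets, 68 were controls and 19065 others had 1 symbol.

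Here, signals were raised to a floor of 20 and log2 was taken, which understates differences of dim probe sets. R 4.3.3 and limma 3.58.1 (lmFit, eBayes) were fitted to 6 group means over 14 arrays (8 residual and 5.05 prior degrees of freedom), over 13329 probe sets with a mean of at least 22.5. A Benjamini-Hochberg adjusted p below 0.05 was called. CD24 was tested against untransfected cells for the array without siRNA. For the luciferase groups, which entered the choice of CD24, that planned test was set aside and differences are given. Likeness was Pearson's r with 216379_x_at, and the 6 highest genes were named, with all CD24 probe sets, the brightest of RUNX1T1 and up to 4 called members of each list. CD24, the lists and the tests were chosen with earlier results of these data known. On simulated arrays of 13329 probe sets, 38% of changes of 1 and 92% of changes of 2 on the log2 scale were recovered for AML1-ETO against luciferase siRNA by nucleofection. Recovery was not simulated for the array without siRNA against untransfected cells, the comparison in which CD24 was tested. Replicate numbers gave no sign of pairing the arrays. Over 22 pairs with the same number, deviations from group means correlated at −0.29 to 0.06. Over 45 pairs with different numbers they correlated at −0.26 to 0.29. These values do not tell whether arrays of the same number shared a culture or run. The number of arrays limits the precision. Promoter sequences are RefSeq's (GRCh38.p14). Figures were drawn in Python 3.11.15 with matplotlib 3.10.9.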

Additional observations from a re-analysis of the deposited data

How the results depend on the processing

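In 216379_x_at, CD24 by nucleofection without siRNA against untransfected cells, −1.54 as reported, lost its call with the scale factor as a covariate (−1.32, adjusted p = 0.0527), on the 2 groups alone (−1.54, adjusted p = 0.314) and with the replicate number as a block (−1.55, adjusted p = 0.0765), and ranged from −1.91 to −1.17 with single arrays left out. In 209771_x_at the call was lost on the 2 groups alone (−2.30, adjusted p = 0.275). The cause was not tested, except that the 2 groups alone leave fewer arrays. For luciferase by nucleofection against untransfected cells, −2.27, also on the 2 groups alone, the difference ranged from −2.63 to −1.90 with single arrays left out. For luciferase by lipid it ranged from −0.43 to 0.31 with single arrays left out, being above 0 without untransfected replicate 1 (0.31) and luciferase lipid replicate 1 (0.07). The knockdown difference by nucleofection, 3.05, was 2.73 with log2 of signal plus 16, and that by lipid, 0.93, was 0.88 to 0.98 under 11 alternatives. Among the other probe sets, 209772_s_at without siRNA against untransfected cells turned to 0.080 with arrays centred on their medians, and ranged from −0.15 to 0.084 with single arrays left out. For luciferase by lipid 209771_x_at ranged from −0.34 to 0.18 and 266_s_at from −0.59 to 0.30 with single arrays left out, each being above 0 without untransfected replicate 1. With a floor of 5, 208650_s_at was at −1.50 and 266_s_at at −2.33 for luciferase by nucleofection against untransfected cells, and the knockdown differences by nucleofection were 2.08 in 208650_s_at, 1.99 in 209772_s_at and 3.28 in 266_s_at. With a floor of 64, differences between groups that lay wholly at that floor could not be given.

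Counts of called probe sets moved more. For AML1-ETO against luciferase by nucleofection, 280 probe sets were called as processed here, 172 higher and 108 lower. With quantile normalization 518 were called, 366 higher and 152 lower. There were 175 with the replicate block, 38 on the 2 groups alone and 126 to 307 with single arrays left out. By lipid 9 were called, against 3 with a floor of 5, 4 without the filter, 17 with an intensity trend, 5 with the replicate block, 0 on the 2 groups alone and 4 to 12 with single arrays left out. Against untransfected cells, luciferase by nucleofection gave 650, against 369 with 1 probe set a gene, 141 with the scale factor as a covariate, 190 with the replicate block, 0 on the 2 groups alone and 34 to 776 with single arrays left out, lowest without untransfected replicate 1. Nucleofection without siRNA gave 237, against 583 without the filter, 490 with an intensity trend, 88 with the scale factor, 70 with the replicate block, 0 on the 2 groups alone and 0 to 277 with single arrays left out, lowest without untransfected replicate 1. Luciferase by lipid gave 1, against 0 with a floor of 64, with 1 probe set a gene and on the 2 groups alone, 2 with log2 of signal plus 16, and 0 to 3 with single arrays left out. Where limma called 0, the probe sets with an unadjusted p under 0.05 on the 2 groups alone numbered 667 for the knockdown by lipid, 2642 for luciferase by nucleofection, 2340 for nucleofection without siRNA and 735 for luciferase by lipid. Without untransfected replicate 1 they numbered 1676 for nucleofection without siRNA and 559 for luciferase by lipid, and for the last they were 317 with a floor of 64 and 267 with 1 probe set a gene. Of 831 values recomputed in all, 754 kept their direction and call, or stayed within the spread of replicates.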
